A study of Mus musculus with 18 samples.

Results

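In the rescue experiment of this series, 12 of the 18 RNA sequencing libraries, every group of libraries was made in 4 replicates, and replicates 1 and 2 stood apart from replicates 3 and 4. The 12 libraries were divided by replicate number alone, and 6 libraries of replicates 1 and 2 were set against 6 of replicates 3 and 4, with group as a term. The cells were E2-10HA, a hybridoma line labelled as mature mouse T cells, which means a T cell fused to a tumour cell so that it grows without end. In all 3 groups the cells had been depleted of RBPJ and infected with the retroviral plasmid pMY-Bio IRES Blasticidin under blasticidin selection. The insert was Flag-tagged mouse RBPJ with the substitutions F261A/A284V, Flag-tagged wild type mouse RBPJ, or none (empty vector), and each group gave 2 libraries to each set of replicates. The labels do not say what set the replicates apart, whether separate infections, cultures, RNA preparations or sequencing runs, so the word set is used here. The libraries came from 1 line, and whether it is 1 clone is not stated in the labels.

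As background, growing T cells spend much of their RNA on a few programmes. Ribosomal proteins, respiratory chain subunits and glycolytic enzymes are made from short and very abundant mRNAs, and histone mRNAs are made in S phase and carry no poly(A) tail. Immediate early genes such as Fos and Nr4a1 are switched on within minutes by receptor signals, serum or handling, without new protein being made, and their mRNAs decay quickly.

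All libraries were normalized together by the authors, and each value is a gene count divided by 1 factor per library, from which whole reads were recovered. The recovered reads summed to 5923799 to 7921533 per library in replicates 1 and 2, and to 3553505 to 4239479 in replicates 3 and 4, so depth and set cannot be told apart. Within a group and set, 3 pairs of libraries differed by less than the sampling noise of their reads: the pair of F261A/A284V in replicates 3 and 4 (chi-square per degree of freedom 0.813), and in replicates 1 and 2 the pairs of RBPJ WT (0.706) and empty vector (0.850). The mean of such a pair served as 1 sample, which left 4 samples in replicates 1 and 2 and 5 in replicates 3 and 4. The other pairs within a set stood at 1.06 to 2.62, and pairs across the sets at 9.89 to 17.98. Along the first principal component, with 61.3% of the variance, the libraries lay apart by set, from -28.97 to -16.39 in replicates 1 and 2 and from 22.3 to 29.18 in replicates 3 and 4. The library nearest the middle, F261A/A284V replicate 1, was also the shallowest of its set. As a check of the labels, Rbpj had 729 and 686 in the F261A/A284V samples, 635 in RBPJ WT and 317 in empty vector of replicates 1 and 2, and 921 in F261A/A284V, 803 and 818 in RBPJ WT and 255 and 272 in empty vector of replicates 3 and 4.

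T cell markers were present in both sets. Cd3e, a chain of the T cell receptor complex, had 420 to 522 in replicates 1 and 2 and 541 to 567 in replicates 3 and 4, and Bcl11b, a T lineage factor, had 1404 to 1489 in replicates 1 and 2 and 1316 to 1413 in replicates 3 and 4. Cd8a reached no more than 2.81 in any library, and Cd5, which mature T cells usually carry, no more than 6.14. None of the 7 B cell, 5 NK cell or 9 stromal and epithelial markers passed the filter on low values, and their highest values in any library were 2.55, 4.62 and 1.36. The 9 measured myeloid markers summed to 251 to 295 in replicates 1 and 2 and to 238 to 313 in replicates 3 and 4, mostly from Cd68 and Fcgr3, with Cd14 at no more than 0.890. Itgam had 13.0 to 68.8 in replicates 1 and 2 and 8.43 to 47.4 in replicates 3 and 4. Of the 4 myeloid markers that passed the filter, it alone differed between the sets as deposited (log2 difference 0.76, adjusted p = 0.0044 in limma), with overlap. The 6 erythroid markers summed to 40.9 to 62.6 in replicates 1 and 2 and to 26.7 to 41.3 in replicates 3 and 4, with Hbb-b1 at 0.

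Between the sets, 7630 of 11691 genes tested (65.3%) passed a Benjamini-Hochberg adjusted p under 0.05 in limma. Of these, 3855 (33%) were higher in replicates 1 and 2 and 3775 (32.3%) lower. Trends of the log2 values on GC content and transcript length, once removed, gave 3115 higher and 4604 lower. The large differences were mostly on 1 side: 383 genes (3.28%) were higher by at least 2-fold in replicates 1 and 2, and 26 (0.222%) lower by at least 2-fold. For 6197 genes (53%) the samples of the sets did not overlap. Among the called genes, 7566 of 7630 had the same direction in all 3 groups. The 3 inserts, by comparison, separated few genes, since the group term was called for 238 (2.04%). The divide was first seen in these values, so the counts describe its size and are no independent evidence of it.

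The difference of a gene followed how densely its transcript was covered by reads. Read density is given here as the mean of the recovered reads over the 12 libraries per base of 1 annotated transcript per gene, and was available for 11594 genes. With the genes in 10 bins of density, in the lowest bin the median log2 difference between replicates 1 and 2 and replicates 3 and 4 was 0.48, and in the next bins it was 0.43, 0.30, 0.23, 0.14, 0.04, -0.05, -0.16, -0.28 and, in the bin with the highest density, -0.52. In that last bin 92.2% of the genes were lower in replicates 1 and 2 and 2.07% higher. In the lowest bin 43.8% were higher and 3.97% lower. The Spearman correlation of density with the difference was -0.68 across genes, which share the libraries and are not independent replicates. Densely covered transcripts were thus mostly lower, and sparse ones more often higher than lower, in replicates 1 and 2.

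**Figure D1:**
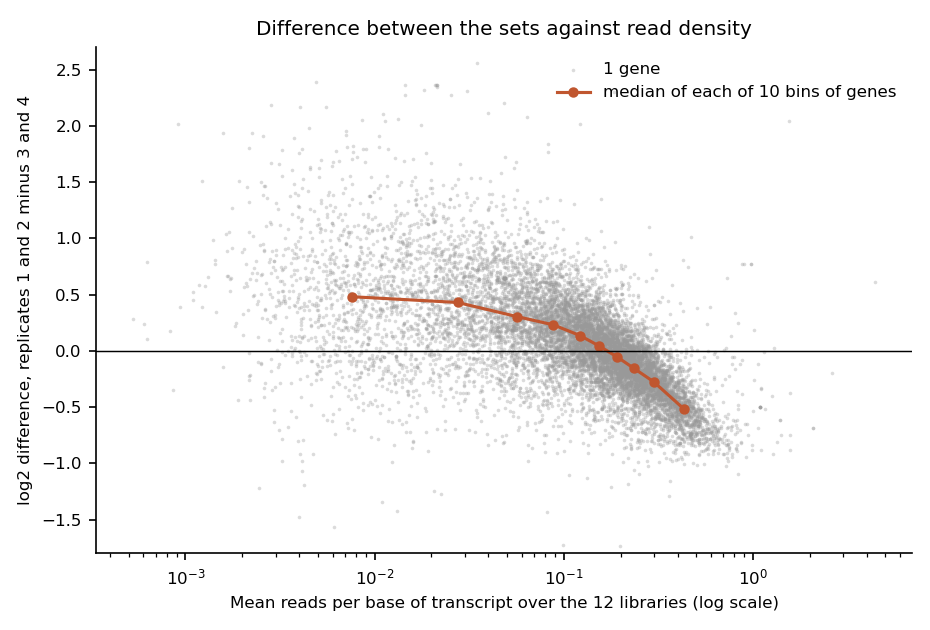
Log2 difference between the sets (y axis, replicates 1 and 2 minus replicates 3 and 4, of log2(value + 1)) against the mean reads per base of the transcript (x axis, log scale), with 1 grey point per gene. The line joins the medians of the 10 bins of genes, which run from 0.48 at the lowest density to -0.52 at the highest.

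The recovered reads, before any scaling between libraries, show this pattern too. Actb, the cytoplasmic actin, had 1624 and 1700 reads in F261A/A284V, 1638 and 1739 in RBPJ WT and 1683 and 1790 in empty vector of replicates 1 and 2. In replicates 3 and 4 it had 1479 and 1484 reads in F261A/A284V, 1461 and 1454 in RBPJ WT and 1452 and 1443 in empty vector. The reads of Actb thus differed little between libraries whose totals differed up to 2.23-fold. The nuclear RNA Malat1 had 4693 to 5188 reads in replicates 1 and 2 and 4048 to 4527 in replicates 3 and 4. The elongation factor gene Eef1a1 had 1425 to 1630 reads in replicates 1 and 2 and 1332 to 1395 in replicates 3 and 4. A pair of sparse transcripts with large differences, chosen after their values were seen, went the other way. Tet1, which oxidizes methylated cytosine in DNA, had 259 to 547 reads in replicates 1 and 2 and 37 to 67 in replicates 3 and 4. Nos2, the inducible nitric oxide synthase, had 341 to 590 in replicates 1 and 2 and 56 to 78 in replicates 3 and 4. The 99th percentile of read density over genes was 0.674 to 0.790 reads per base in replicates 1 and 2 and 0.549 to 0.597 in replicates 3 and 4, while the median over genes was 0.145 to 0.205 in replicates 1 and 2 and 0.0785 to 0.0961 in replicates 3 and 4.

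**Figure D2:**
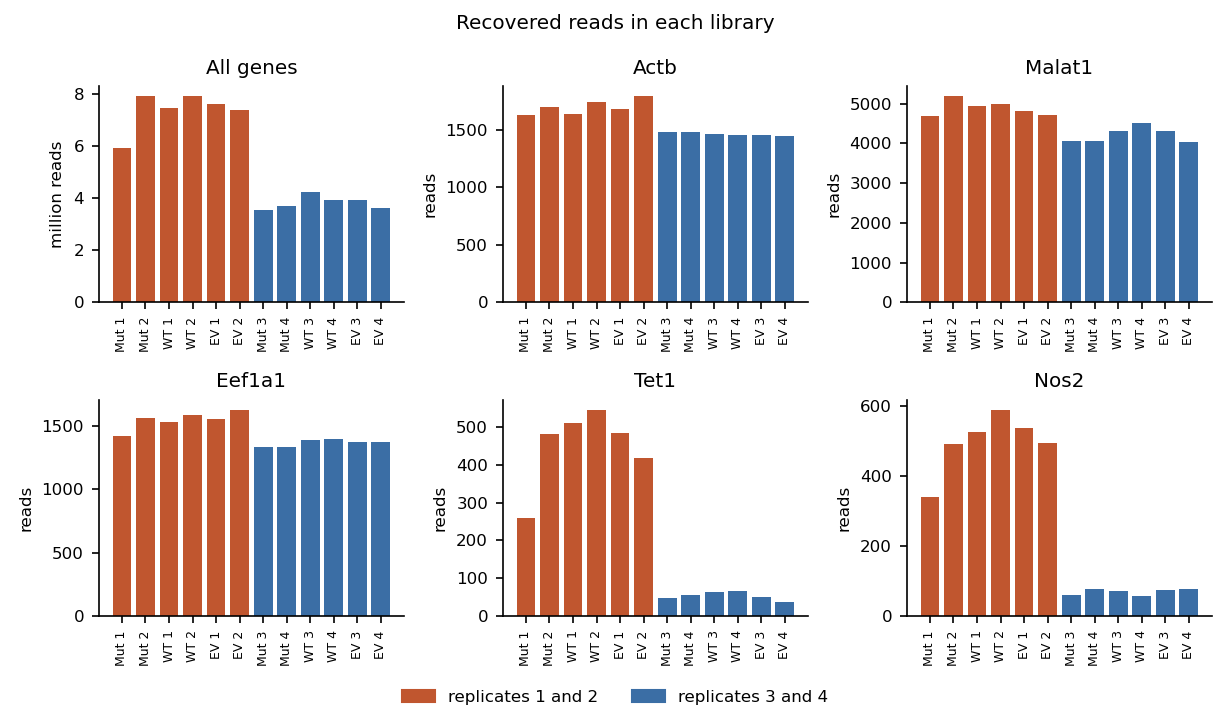
Recovered reads of all genes and of 5 genes in each of the 12 libraries, with F261A/A284V (Mut), RBPJ WT (WT) and empty vector (EV) followed by the replicate number. Bars of Actb, Malat1 and Eef1a1 are of similar height in both sets although the totals differ, whereas Tet1 and Nos2 stand far lower in replicates 3 and 4.

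The gradient was also set beside depth between single libraries. For each pair of libraries of a group, the median log2 difference of the highest of the 10 density bins minus that of the lowest was taken, deeper minus shallower library. Across the sets it ran from -1.19 to -0.66 at depth ratios of 1.60 to 2.23. Within a set, at depth ratios of 1.03 to 1.09, it ran from -0.15 to -0.05, not in the order of the ratios. RBPJ WT replicate 3 against replicate 4 gave -0.07 at 1.08, and empty vector replicate 1 against replicate 2 gave -0.11 at 1.03. The exception within a set was F261A/A284V replicate 2 against replicate 1, whose depths differed 1.34-fold and whose gradient was -0.42. In the knockdown experiment of the same line, scramble hairpin replicate 1 against replicate 3, at a ratio of 1.26, gave -0.57, and L3MBTL3 hairpin replicate 3 against replicate 1, at 1.02, gave 0.18. The labels and files do not say how reads were filtered before counting, and the part of depth or filtering in the differences of single genes was not tested. Lower values of densely covered genes in the deeper set therefore cannot be told apart from a limit on the reads counted per base. Each gene group below is therefore given as deposited and again after the trend of each library on read density was removed, an alternative added after the data were seen. With the trend removed, 2895 of 11594 genes (25%) were higher in replicates 1 and 2 and 2977 (25.7%) lower. Of the genes called as deposited, 4266 were called again in the same direction, 273 in the opposite direction, and 3048 were no longer called.

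Genes of DNA replication were mostly higher in replicates 1 and 2. Of 30 genes of DNA replication and the G1/S transition, 19 were higher in replicates 1 and 2 and 5 lower, with a median log2 difference of 0.22, against 0.02 over all genes tested. With the density trend removed, 27 were higher and none lower, with a median of 0.35. Pole, the catalytic subunit of DNA polymerase epsilon, had 1160 and 1224 in F261A/A284V, 1202 in RBPJ WT and 1179 in empty vector of replicates 1 and 2, and 680 in F261A/A284V, 797 and 790 in RBPJ WT and 708 and 677 in empty vector of replicates 3 and 4. Every sample of replicates 1 and 2 lay above every sample of replicates 3 and 4, at a log2 difference of 0.72 (SE 0.050, adjusted p = 9.8e-10). Ccne2, a cyclin of S phase entry, averaged 482 ± 11.7 in replicates 1 and 2 and 303 ± 47.1 in replicates 3 and 4 (SD, n = 4 and n = 5 samples, over the 3 groups, here and below). Pola1, the catalytic subunit of DNA polymerase alpha, averaged 1155 ± 40.2 in replicates 1 and 2 and 779 ± 64.5 in replicates 3 and 4, and Tyms, which makes thymidylate, 298 ± 14.9 in replicates 1 and 2 and 197 ± 15.2 in replicates 3 and 4. Also higher was E2f1, a transcription factor of S phase entry, at 440 ± 17.3 in replicates 1 and 2 and 300 ± 21.9 in replicates 3 and 4.

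Mitotic genes changed sign with the treatment of read density. As deposited, 18 of 27 were lower in replicates 1 and 2 and 3 higher, with a median of -0.26. With the trend removed, 15 were higher and 2 lower, with a median of 0.15. The 2 that stayed lower were Cdk1, the kinase that drives entry into mitosis, and Ube2c, which tags mitotic cyclins for destruction. Cdk1 had 558.9 and 492.7 in F261A/A284V, 497 in RBPJ WT and 512 in empty vector of replicates 1 and 2, and 726 in F261A/A284V, 655 and 746 in RBPJ WT and 731 and 809 in empty vector of replicates 3 and 4, at a log2 difference of -0.52 as deposited (SE 0.057, adjusted p = 1.7e-07) and -0.58 with the trend removed. Top2a, which untangles chromosomes, was lower as deposited (-0.46) and showed no call with the trend removed (0.05, adjusted p = 0.15). Among 15 tested brakes of the cell cycle, 9 were lower and 1 higher as deposited, and 5 were lower and 5 higher with the trend removed. Myc, which drives growth, averaged 834 ± 68.0 in replicates 1 and 2 and 1307 ± 49.6 in replicates 3 and 4, a log2 difference of -0.67 as deposited and -0.14 with the trend removed (adjusted p = 0.0052).

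Genes for the machinery of protein synthesis and breakdown were mostly lower in replicates 1 and 2 as deposited. All 79 ribosomal protein genes tested were lower as deposited, with a median of -0.79, and all 79 were lower with the density trend removed, with a median of -0.38. Rpl36, a protein of the large ribosomal subunit, had 207 and 167 in F261A/A284V, 173 in RBPJ WT and 187 in empty vector of replicates 1 and 2, and 354 in F261A/A284V, 306 and 342 in RBPJ WT and 329 and 364 in empty vector of replicates 3 and 4. The sets did not overlap, at a log2 difference of -0.90 as deposited (SE 0.074, adjusted p = 3.9e-09) and -0.38 with the trend removed. The 31 proteasome genes were all lower as deposited (median -0.47), and 17 were lower and 3 higher with the trend removed (median -0.13). All 20 cytosolic tRNA synthetases were lower as deposited, with a median of -0.49, and 8 were lower and 1 higher with the trend removed (median -0.07). Of the 27 tested genes of MYC and ribosome biogenesis, 20 were lower and 2 higher as deposited, and 10 lower and 3 higher with the trend removed.

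Genes of energy metabolism were mostly lower in replicates 1 and 2 as deposited. Of 75 nuclear genes for oxidative phosphorylation, 74 were lower, with a median of -0.61, and 62 were lower and 1 higher with the trend removed (median -0.29). Cox4i1, a subunit of cytochrome c oxidase, averaged 331 ± 35.4 in replicates 1 and 2 and 582 ± 36.7 in replicates 3 and 4. All 22 genes of the tricarboxylic acid cycle were lower as deposited (median -0.51), and 12 were lower and 1 higher with the trend removed (median -0.14). Of 20 glycolytic genes, 15 were lower and 1 higher as deposited (median -0.41), and 9 lower and 4 higher with the trend removed (median -0.08). Aldoa, the aldolase of glycolysis, averaged 1129 ± 120 in replicates 1 and 2 and 1966 ± 116 in replicates 3 and 4, a log2 difference of -0.84 as deposited and -0.32 with the trend removed. Cholesterol synthesis was lower for 17 of 22 genes as deposited and for 11 with the trend removed, with 2 higher each time. Of 13 genes of fatty acid synthesis, 9 were lower and 3 higher as deposited, and 1 was lower and 4 higher with the trend removed.

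**Figure D3:**
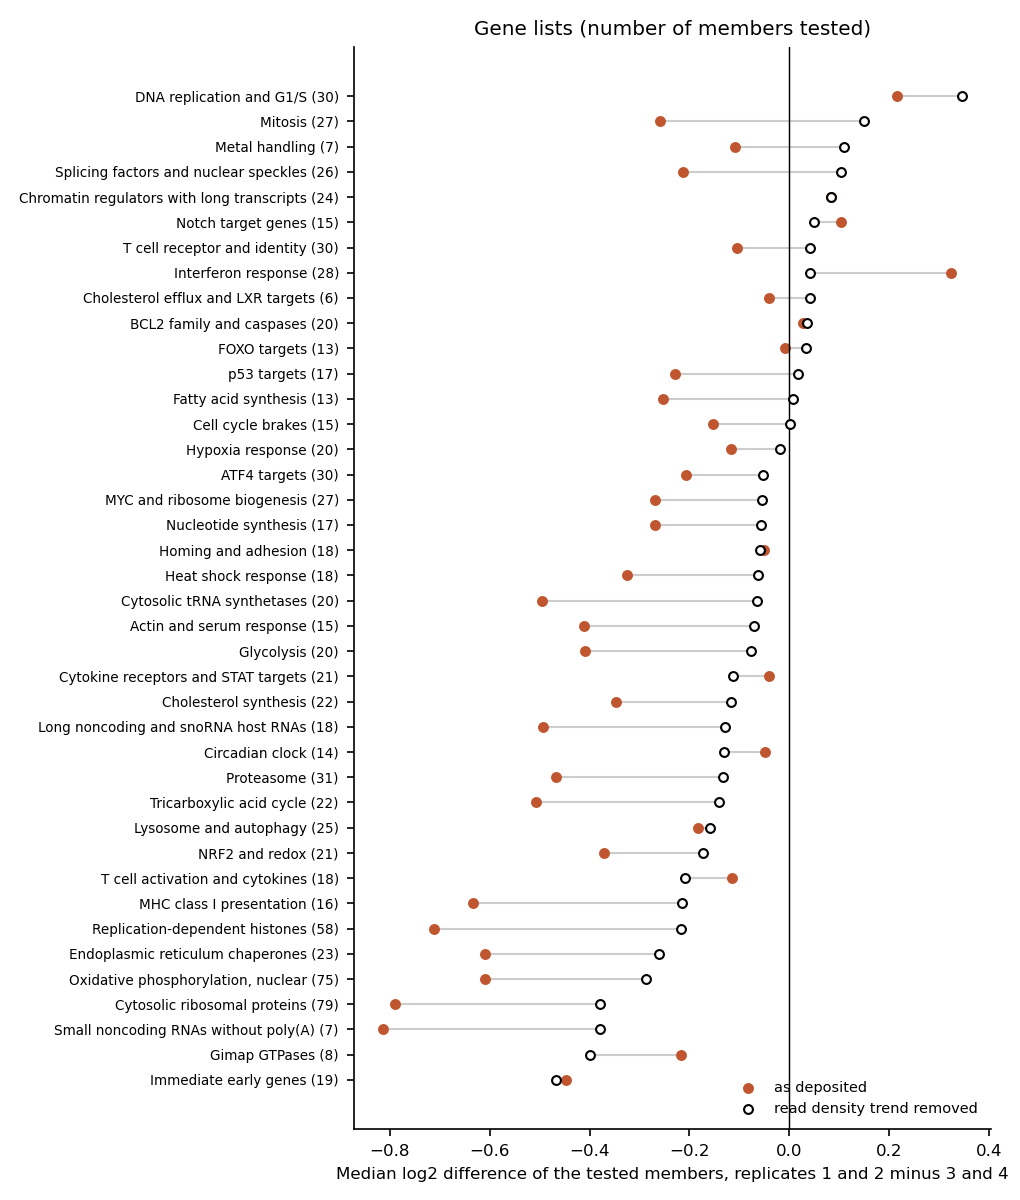
Median log2 difference between the sets (x axis, replicates 1 and 2 minus replicates 3 and 4) for each gene list, with the number of tested members in brackets. Filled points are as deposited and open points after the read density trend was removed, and the lists are ordered by the open points, from DNA replication (0.35) at the top to immediate early genes (-0.47) at the bottom.

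Most immediate early genes were lower in replicates 1 and 2, in the deposited values and with the density trend removed. Of 22 such genes 19 were tested, 14 were lower in replicates 1 and 2 and none higher, with a median of -0.45. With the trend removed 14 were lower and none higher, with a median of -0.47. Fos, a subunit of the transcription factor AP-1, had 192 and 201 in F261A/A284V, 195 in RBPJ WT and 171 in empty vector of replicates 1 and 2, and 386 in F261A/A284V, 413 and 419 in RBPJ WT and 438 and 419 in empty vector of replicates 3 and 4. The groups of each set lay close together and the sets did not overlap, at a log2 difference of -1.13 (SE 0.066, adjusted p = 2.3e-10). Nr4a1, an orphan nuclear receptor that T cell receptor signals switch on, averaged 441 ± 31.8 in replicates 1 and 2 and 936 ± 57.7 in replicates 3 and 4, at a log2 difference of -1.09 (SE 0.059, adjusted p = 1.2e-10). Fosl2, another AP-1 subunit, averaged 1183 ± 181 in replicates 1 and 2 and 2145 ± 447 in replicates 3 and 4, Junb 640 ± 37.2 in replicates 1 and 2 and 1081 ± 21.5 in replicates 3 and 4, and Zfp36, which speeds mRNA decay, 338 ± 22.1 in replicates 1 and 2 and 524 ± 43.0 in replicates 3 and 4. The 5 that did not pass the test were Egr2 (-0.39), Fosb (0.06), Fosl1 (0.38), Atf3 (0.20) and Ier3 (adjusted p = 0.97). Single members moved with the trend. Junb stood at -0.75 as deposited and -0.28 with the trend removed. Jund (-0.45 as deposited) and Klf6 (-0.21 as deposited) were no longer called with the trend removed, and Egr2 (-0.86) and Fosb (-0.305) were then called lower.

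The promoters of 4 of these genes, each called lower, are shown because 14 of the 19 tested members were lower, with letters that are bound by factors known to switch on such genes. The sequences are from RefSeq on GRCm38.p6, on the strand of the gene, and 16 of the 19 tested genes matched the RefSeq table. Capitals mark TGACG, the core of the site of CREB factors, read on both strands, in Fos (chr12:85473640-85473939, plus strand) and Nr4a1 (chr15:101266596-101266895, plus strand), the CArG box of serum response factor in Zfp36 (chr7:28379247-28379316, minus strand), and TGACGTCA, the full palindromic site, in Dusp1 (chr17:26508578-26508645, minus strand).
Fos: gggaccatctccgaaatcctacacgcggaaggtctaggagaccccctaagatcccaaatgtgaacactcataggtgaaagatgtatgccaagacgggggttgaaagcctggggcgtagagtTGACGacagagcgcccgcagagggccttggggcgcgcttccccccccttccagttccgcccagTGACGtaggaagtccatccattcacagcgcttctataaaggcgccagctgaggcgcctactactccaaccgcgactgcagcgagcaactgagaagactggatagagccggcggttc
Nr4a1: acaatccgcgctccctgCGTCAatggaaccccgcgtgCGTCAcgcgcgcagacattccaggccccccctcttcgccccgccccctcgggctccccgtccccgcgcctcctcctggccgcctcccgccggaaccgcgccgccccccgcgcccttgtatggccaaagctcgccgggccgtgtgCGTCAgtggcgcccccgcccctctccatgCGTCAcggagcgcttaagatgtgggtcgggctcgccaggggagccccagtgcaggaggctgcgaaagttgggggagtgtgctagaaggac
Zfp36: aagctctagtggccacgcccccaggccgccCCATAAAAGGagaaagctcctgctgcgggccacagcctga
Dusp1: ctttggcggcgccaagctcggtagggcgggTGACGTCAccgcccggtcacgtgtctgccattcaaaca
TGACG, which also occurs inside TGACGTCA, was found in the 300-base promoters of 9 of the 16 genes, among them Egr2, Fosb and Atf3, which were not called as deposited, against 20.8% of the 32851 promoters of all genes. The CArG box was found in Zfp36 and Egr2, against 1.63% of all promoters, and TGACGTCA in Dusp1, against 1.79%. A gene was counted when any of its listed promoters held a match, whereas the shares are of single promoters. The counts and the shares are therefore unlike measures, and no excess is drawn from them. Fos and Nr4a1 are the members with the largest differences. A match describes the letters and not binding. Dusp1, a phosphatase of MAP kinases, differed least of the 4, averaging 246 ± 15.8 in replicates 1 and 2 and 290 ± 17.0 in replicates 3 and 4.

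Chaperones of the endoplasmic reticulum were lower for 19 of 23 genes and higher for 1 as deposited (median -0.61), and lower for 16 with the trend removed (median -0.26). Hspa5, the main chaperone of that compartment, had 1605 and 1303 in F261A/A284V, 1327 in RBPJ WT and 1341 in empty vector of replicates 1 and 2, and 2624 in F261A/A284V, 2404 and 2561 in RBPJ WT and 2590 and 2798 in empty vector of replicates 3 and 4. Of 18 heat shock genes 13 were lower as deposited and 8 with the trend removed, and none was higher. Of 30 tested targets of the stress factor ATF4, 16 were lower and 5 higher as deposited, and 14 lower and 6 higher with the trend removed. Nqo1, a target of the oxidative stress factor NRF2, went against its list, at 36.2 ± 7.07 in replicates 1 and 2 and 13.3 ± 4.70 in replicates 3 and 4, a log2 difference of 1.52 as deposited and 1.11 with the trend removed. Of the 21 members of that list, Nqo1 included, 11 were lower and 2 higher as deposited, and 11 were lower and 4 higher with the trend removed. Ireb2, which senses iron, averaged 547 ± 54.0 in replicates 1 and 2 and 292 ± 39.7 in replicates 3 and 4 (0.91 as deposited, 0.69 with the trend removed). Txnip, which is induced by glucose and restrains its uptake, averaged 1433 ± 161 in replicates 1 and 2 and 2832 ± 158 in replicates 3 and 4 (-1.02 as deposited, -0.49 with the trend removed).

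Of 14 circadian genes tested, 5 were lower and 2 higher in replicates 1 and 2 as deposited, with a median of -0.05. Over all genes tested 32.3% were lower and 33% higher, so the deposited count of lower genes stood near the background. With the trend removed, 8 were lower and 1 higher (median -0.13), against 25.7% lower and 25% higher over all genes. The one higher with the trend removed was Bhlhe40, another repressor of the clock (0.19 as deposited, 0.39 with the trend removed). Per1, a repressor of the clock, averaged 701 ± 55.8 in replicates 1 and 2 and 1068 ± 57.0 in replicates 3 and 4, at a log2 difference of -0.64 as deposited and -0.61 with the trend removed. Its partner Per2 had 68.5 and 94.5 in F261A/A284V, 62.1 in RBPJ WT and 56.9 in empty vector of replicates 1 and 2, and 171 in F261A/A284V, 86.6 and 85.7 in RBPJ WT and 141 and 101 in empty vector of replicates 3 and 4. The sets overlapped for Per2 over all samples, although within each insert replicates 1 and 2 were lower, at a log2 difference of -0.86 (SE 0.140, adjusted p = 1.9e-05).

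T cell state did not move one way. Of 30 tested genes of T cell receptor signalling and identity, 8 were higher and 14 lower as deposited, and 10 were higher and 7 lower with the trend removed. Over all genes tested, 33% were higher and 32.3% lower as deposited, and 25% higher and 25.7% lower with the trend removed. The counts with the trend removed thus stood near the background. The chains of the receptor complex differed among themselves. Cd247, the zeta chain, had 253 and 289 in F261A/A284V, 247 in RBPJ WT and 246 in empty vector of replicates 1 and 2, and 126 in F261A/A284V, 157 and 153 in RBPJ WT and 145 and 131 in empty vector of replicates 3 and 4, at a log2 difference of 0.86 as deposited (SE 0.085, adjusted p = 4.0e-08) and 0.80 with the trend removed. Cd3g, the gamma chain, had 440 to 547 in the libraries of replicates 1 and 2 and 750 to 859 in those of replicates 3 and 4 (-0.75 as deposited, -0.23 with the trend removed). Ubash3a, a phosphatase that restrains receptor signalling, averaged 149 ± 21.0 in replicates 1 and 2 and 70.7 ± 15.6 in replicates 3 and 4, with no overlap. Cd4, the coreceptor, had 76.5 and 88.1 in F261A/A284V, 194 in RBPJ WT and 132 in empty vector of replicates 1 and 2, and 19.5 in F261A/A284V, 124 and 117 in RBPJ WT and 57.5 and 62.7 in empty vector of replicates 3 and 4. Within each insert Cd4 was higher in replicates 1 and 2, but the inserts differed as well and the sets overlapped. Cd6, an adhesion receptor of T cells, was higher in replicates 3 and 4 and also overlapped, at a log2 difference of -0.84 as deposited and -1.28 with the trend removed.

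Activation genes were mixed too, with 5 of 18 higher and 7 lower as deposited, and 3 higher and 8 lower with the trend removed. The deposited counts stood near the background of 33% higher and 32.3% lower over all genes tested. With the trend removed that background was 25% higher and 25.7% lower. The inhibitory receptor gene Pdcd1 averaged 1029 ± 112 in replicates 1 and 2 and 1974 ± 105 in replicates 3 and 4 (-0.98 as deposited, -0.45 with the trend removed). The costimulatory receptor gene Tnfrsf9 averaged 660 ± 75.8 in replicates 1 and 2 and 1208 ± 196 in replicates 3 and 4 (-0.96 as deposited, -0.52 with the trend removed), and the early activation marker Cd69 270 ± 8.89 in replicates 1 and 2 and 418 ± 36.9 in replicates 3 and 4 (-0.59 as deposited, -0.53 with the trend removed). In the other direction stood Il2ra, the alpha chain of the interleukin 2 receptor, with 64.6 ± 15.6 in replicates 1 and 2 and 28.7 ± 9.63 in replicates 3 and 4 (1.14 as deposited, 0.69 with the trend removed), and Tbx21, the factor T-bet of type 1 helper cells, with 83.9 ± 18.1 in replicates 1 and 2 and 48.0 ± 7.02 in replicates 3 and 4 (0.83 as deposited, 0.46 with the trend removed). Among cytokine receptors, Il10ra averaged 63.6 ± 9.71 in replicates 1 and 2 and 22.95 ± 6.67 in replicates 3 and 4 (1.47 as deposited, 1.04 with the trend removed), while Ifngr1 averaged 676 ± 47.7 in replicates 1 and 2 and 1220 ± 90.3 in replicates 3 and 4 (-0.89 as deposited, -0.44 with the trend removed). Among homing receptors Ccr2, a chemokine receptor, had 118 and 108 in F261A/A284V, 412 in RBPJ WT and 103 in empty vector of replicates 1 and 2, and 14.4 in F261A/A284V, 131 and 135 in RBPJ WT and 15.1 and 22.9 in empty vector of replicates 3 and 4. Ccr2 differed by 2.31 on the log2 scale (SE 0.174, adjusted p = 2.0e-09) and by 1.93 with the trend removed, and was highest in RBPJ WT in both sets.

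Interferon response genes were mostly higher in replicates 1 and 2 as deposited, with 17 of 28 higher, 3 lower and a median of 0.32. These transcripts were sparse, with a median of 0.0592 reads per base against 0.138 over all genes tested. With the trend removed 8 were higher and 3 lower with a median of 0.04. Over all genes tested, 33% were higher and 32.3% lower as deposited, and 25% higher and 25.7% lower with the trend removed. Cmpk2, a mitochondrial nucleotide kinase induced by interferon, had 32.0 and 54.5 in F261A/A284V, 49.99 in RBPJ WT and 52.2 in empty vector of replicates 1 and 2, and 12 in F261A/A284V, 14.01 and 15.46 in RBPJ WT and 15.1 and 15.3 in empty vector of replicates 3 and 4. It stood at a log2 difference of 1.71 (SE 0.201, adjusted p = 3.6e-07) and of 1.27 with the trend removed. Rtp4, another gene of this list, averaged 42.3 ± 6.52 in replicates 1 and 2 and 14.9 ± 8.39 in replicates 3 and 4. Not all members followed: Isg15, a ubiquitin-like protein, differed by 0.03 (adjusted p = 0.88), and Ifi35 and Bst2 were lower by -0.51 and -0.57. Genes of MHC class I presentation were lower for 13 of 16 and higher for 2 as deposited (median -0.63), and lower for 11 and higher for 1 with the trend removed (median -0.22).

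The actin list held opposite members. Acta2, the smooth muscle actin, had 221 and 230 in F261A/A284V, 218 in RBPJ WT and 231 in empty vector of replicates 1 and 2, and 86.4 in F261A/A284V, 99.4 and 77.3 in RBPJ WT and 84.9 and 96.3 in empty vector of replicates 3 and 4. The sets did not overlap and the inserts hardly differed, at a log2 difference of 1.34 (SE 0.095, adjusted p = 1.1e-09) and of 1.16 with the trend removed. Actb averaged 1199 ± 168 in replicates 1 and 2 and 2065 ± 154 in replicates 3 and 4 (-0.83 as deposited, -0.30 with the trend removed). Of the 15 tested genes of this list, 10 were lower and 3 higher as deposited, and 7 were lower and 4 higher with the trend removed.

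The ranking of the largest differences left out predicted gene models and clone names. Its rule asked for a mean of at least 50 in 1 set, no overlap and the same direction in the 3 groups. The genes with the largest differences by this rule were led by 8 Ugt1a genes. These glucuronosyltransferases share most of their exons, 4 of them held the same values as each other, and they are best read as 1 locus. Ugt1a6a, the member with the largest difference, averaged 94.8 ± 17.9 in replicates 1 and 2 and 19.3 ± 7.99 in replicates 3 and 4, a log2 difference of 2.56 (SE 0.190, adjusted p = 1.7e-09). Nrp1, a coreceptor for semaphorins and VEGF, had 143 and 167 in F261A/A284V, 298 in RBPJ WT and 185 in empty vector of replicates 1 and 2, and 31.5 in F261A/A284V, 75.2 and 85.7 in RBPJ WT and 34.2 and 30.6 in empty vector of replicates 3 and 4 (2.21 as deposited, 1.88 with the trend removed). Prrg1 (2.11), the zinc finger gene Zfp934 (2.08) and Nhsl2 (2.05) completed the 12 that were higher. Tet1 averaged 297 ± 48.8 in replicates 1 and 2 and 75.4 ± 13.7 in replicates 3 and 4, at 2.01, and Nos2 332 ± 29.1 in replicates 1 and 2 and 98.8 ± 15.2 in replicates 3 and 4, at 1.77. Lower in replicates 1 and 2 by the same rule were Stab1, a scavenger receptor, and Neat1, the RNA that builds nuclear paraspeckles. Stab1 had 57.0 and 63.4 in F261A/A284V, 61.6 in RBPJ WT and 40.1 in empty vector of replicates 1 and 2, and 186 in F261A/A284V, 122 and 121 in RBPJ WT and 123 and 99.3 in empty vector of replicates 3 and 4 (-1.34 as deposited, -1.79 with the trend removed). Neat1 averaged 3135 ± 504 in replicates 1 and 2 and 6911 ± 744 in replicates 3 and 4 (-1.18 as deposited, -1.07 with the trend removed). The 12 lower genes also held Fos, Nr4a1, Fosl2, Txnip, the triglyceride enzyme gene Dgat1 (-1.01) and the small RNA genes Mir3069, Scarna13, Snord49b, Snora61 and Snora68. With the trend removed, Dgat1 stood at -0.55 and these small RNA genes ran from -0.66 for Snora68 to -0.50 for Snord49b.

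**Figure D4:**
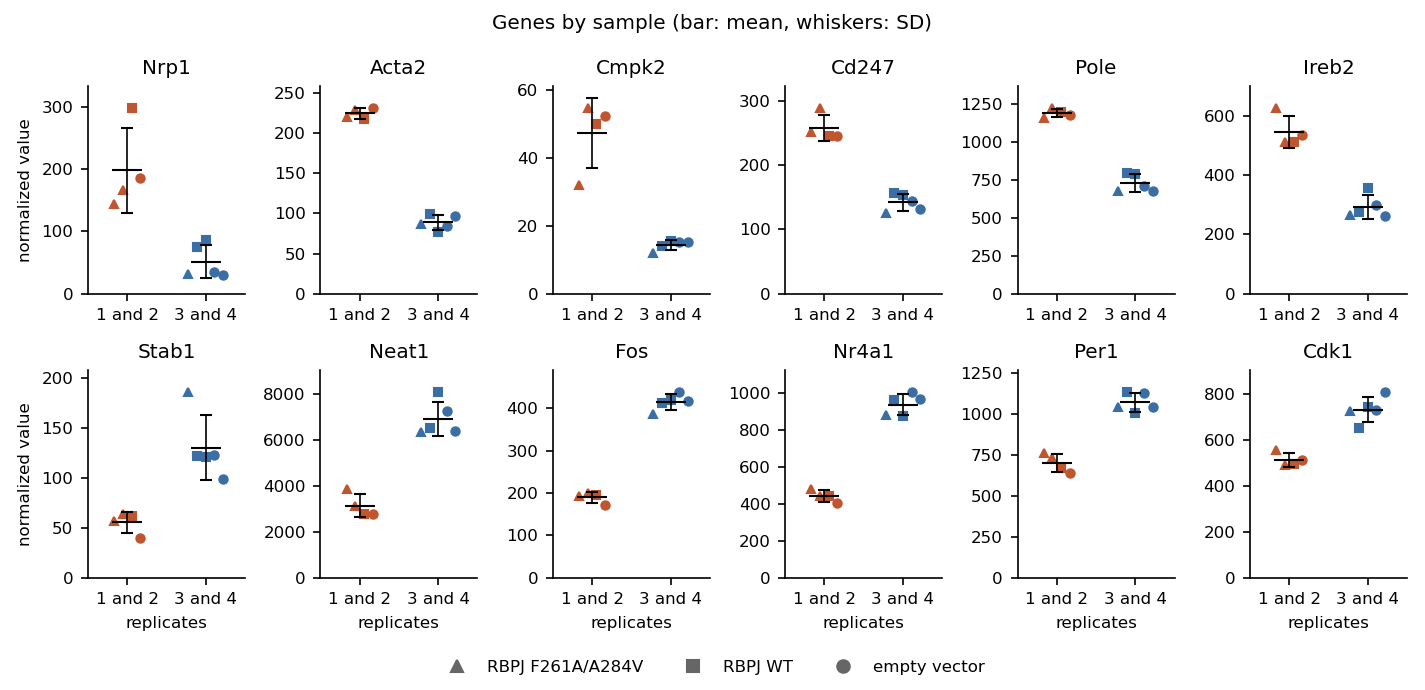
Normalized value (y axis) of 12 genes in the 4 samples of replicates 1 and 2 and the 5 samples of replicates 3 and 4, with 1 symbol shape per insert, the mean as a bar and the SD as whiskers. The 12 genes were chosen with their values known, some by a rule that asks for no overlap, so that none overlaps follows from the choice. Over all genes tested, the sets did not overlap for 53%. Within a set Nrp1 is highest in RBPJ WT.

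Histone genes and small RNA genes were mostly lower in replicates 1 and 2, and zinc finger genes mostly higher, as deposited. All 58 replication-dependent histone genes tested were lower in replicates 1 and 2 as deposited, with a median of -0.71, and 47 were lower and none higher with the trend removed (median -0.22). Their median density, 0.611 reads per base, was the highest of the lists. Hist2h2bb averaged 279 ± 35.5 in replicates 1 and 2 and 504 ± 39.1 in replicates 3 and 4. Histone genes belong to families with near-identical copies, so the reads of single members are uncertain. Of 7 tested small RNAs without a poly(A) tail 6 were lower in both treatments, with a median of -0.81 as deposited and -0.38 with the trend removed, among them Rmrp, which processes ribosomal RNA, at 230 ± 31.5 in replicates 1 and 2 and 412 ± 46.8 in replicates 3 and 4. Of 78 genes of snoRNAs and scaRNAs, which guide the modification of other RNAs, 53 were lower and 2 higher as deposited, with a median of -0.64 as deposited and -0.47 with the trend removed. Most lie inside introns of host genes, whose unspliced RNA can share their reads. Of 287 zinc finger genes named Zfp, 179 were higher and 25 lower as deposited (median 0.32, and 0.10 with the trend removed). Over all genes tested, 33% were higher and 32.3% lower as deposited, with a median of 0.02. With the trend removed, 25% were higher and 25.7% lower. Of 88 microRNA genes 26 were lower and 6 higher as deposited, with a median of -0.15 as deposited and -0.01 with the trend removed. Of 18 long noncoding and snoRNA host RNAs, 10 were lower and 6 higher as deposited (median -0.49). With the trend removed, 6 of 17 were lower and 1 higher (median -0.13).

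GC content and length separated the sets less than density did. The median log2 difference was 0.16 in the lowest of 5 bins of genes by GC content and, over the next bins, 0.04, 0.01, -0.03 and -0.06. By transcript length it ran from -0.19 in the shortest of 5 bins over -0.03, 0.03 and 0.09 to 0.18 in the longest. The Spearman correlation across 11594 genes was -0.19 with GC content and 0.30 with length as deposited, and -0.22 and 0.21 with the density trend removed. Density itself fell with length, with a median of 0.2003 reads per base in the shortest bin and 0.105 in the longest. In the bin of lowest GC content 48.6% of genes were called higher in replicates 1 and 2 and 19.8% lower as deposited, and the median was 0.12 with the trend removed. In the longest bin 51.8% were called higher and 18.6% lower as deposited, and the median was 0.08 with the trend removed. Within the lists this was not uniform, as Chd7, a chromatin remodeller with a long transcript, averaged 571 ± 50.04 in replicates 1 and 2 and 751 ± 100 in replicates 3 and 4 (-0.46 as deposited, -0.74 with the trend removed).

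**Figure D5:**
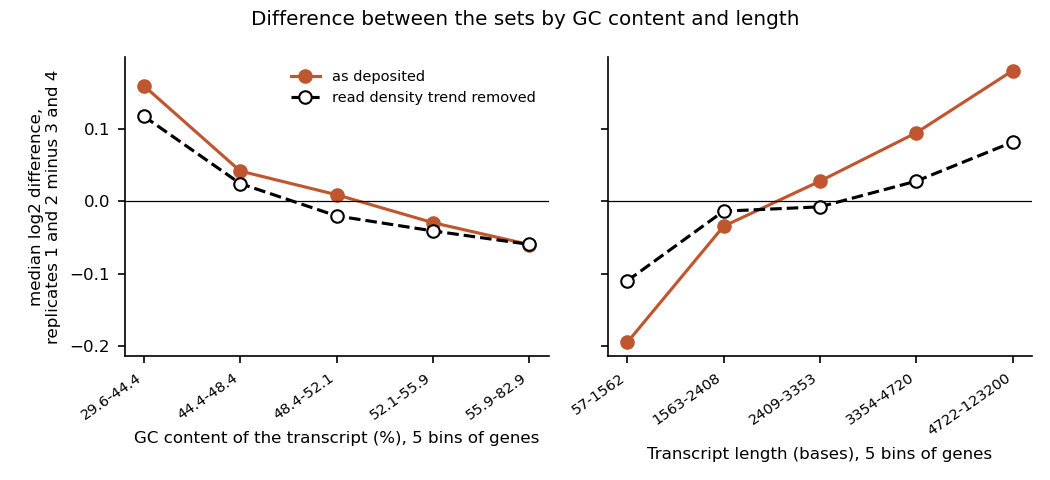
Median log2 difference between the sets (y axis, replicates 1 and 2 minus replicates 3 and 4) in 5 bins of genes by GC content of the transcript in percent (left) and by transcript length in bases (right). Solid lines are as deposited, from 0.16 to -0.06 over GC content and from -0.19 to 0.18 over length, and dashed lines are with the read density trend removed.

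More genes were detected in replicates 1 and 2. At full depth, 15217 to 15980 genes had at least 1 read in replicates 1 and 2 and 13984 to 14177 in replicates 3 and 4. With every library thinned at random to 3553505 reads, 14460 to 14717 genes had a read in replicates 1 and 2 and 13924 to 14064 in replicates 3 and 4. Thinning of counted reads keeps the make-up of each library, so it does not undo an effect of depth before counting. The 100 genes with the most reads held 5.13% to 5.53% of the reads in replicates 1 and 2 and 6.02% to 6.17% in replicates 3 and 4.

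Whether the difference between the sets varied with the group was tested on few samples. The group by set interaction was called for 2 of 11691 genes (0.0171%), Bzrap1 and Gimap1, and 237 genes had an unadjusted p under 0.05. With the 12 libraries kept separate, near-identical pairs included, 42 genes were called and 1195 had an unadjusted p under 0.05. Among them were Rbpj, Gzmb and Cd4, with adjusted p-values of limma for the interaction of 0.00075, 0.0013 and 0.0077. A low count of calls does not show that the difference was the same in the 3 groups. Across genes, the differences within single groups correlated at 0.81 to 0.89 (Pearson), as a description. Gimap1, a GTPase of lymphocytes, had 283.9 and 276.5 in F261A/A284V, 39.6 in RBPJ WT and 333 in empty vector of replicates 1 and 2, and 501 in F261A/A284V, 26.8 and 25.3 in RBPJ WT and 438 and 455 in empty vector of replicates 3 and 4. It was lowest in RBPJ WT in both sets, and its spread between the inserts was wider in replicates 3 and 4. Of genes that responded to the insert, Hey1, a Notch target, had 27.6 and 28.5 in F261A/A284V, 7.87 in RBPJ WT and 27.3 in empty vector of replicates 1 and 2, and 11.2 in F261A/A284V, 0 and 1.41 in RBPJ WT and 6.85 and 4.59 in empty vector of replicates 3 and 4. Its log2 difference between the sets was 1.95 (SE 0.352, adjusted p = 6.6e-05), with RBPJ WT lowest in each set. Lgmn, a lysosomal protease, averaged 303 ± 135 in replicates 1 and 2 and 270 ± 181 in replicates 3 and 4 and was not called (0.09, adjusted p = 0.46). Gzmb, a cytotoxic protease, averaged 165 ± 83.2 in replicates 1 and 2 and 247 ± 197 in replicates 3 and 4 and was lower (-0.61, adjusted p = 0.0010), with overlap, and within RBPJ WT alone it turned to 0.08 (adjusted p = 0.53). Gimap8 and L3mbtl3 were not called, at -0.21 (adjusted p = 0.38) and -0.04 (adjusted p = 0.56).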

How the data were processed

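The authors deposited normalized gene counts, here called a signal, in 1 table of 24391 gene symbols for the 12 rescue libraries and another for the 6 knockdown libraries. The submitters' processing notes name the aligner TopHat2 (2.1.1), the normalization tool DESeq2 (1.24.0) and the build mm9. The sources used here do not give the counter, its annotation, its use of strand or any filtering of reads. Per the labels' protocols, stranded libraries were made from total RNA depleted of ribosomal RNA. In each library, dividing the deposited values by what 1 read is worth gave whole reads, to within 0.1 read, for 100% of them, and size factors recomputed from those reads equalled the deposited ones. The sum of recovered reads is the depth, and precision at low values is limited by these counts.

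Genes at 10 or more in at least 4 libraries were tested 2-sided on log2(value + 1), with group and set as terms, by the trend method of limma (3.58.1, under R 4.3.3), on 9 samples after near-identical libraries (chi-square per degree of freedom under 1, over genes with at least 20 reads) had been averaged. Fold changes on this scale understate those of low genes. A gene counted as called when its p, adjusted over all tested genes by Benjamini-Hochberg, was under 0.05; adjusted p-values come from limma. The edgeR quasi-likelihood test (4.0.16) and DESeq2 (1.42.0) on recovered reads were alternatives. The labels do not say that replicates were separate cultures, so the p-values rest on a spread between samples that may be technical alone. The fit was tested on simulated data. Summaries were made in Python with pandas 2.3.3.

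Named genes followed a rule: the 12 largest differences in each direction with a mean of at least 50 in 1 set, no overlap and 1 direction in all groups, up to 4 per list, and Rbpj, L3mbtl3, Lgmn, Gimap8 and Gzmb. Left out of the 12 largest were symbols starting with Gm, AI, AA, AU, AW, BC, BB, C, D or E plus digits, or ending in Rik. That pattern is meant for predicted genes and clones but also takes out known genes such as E2f1. Other genes named, such as Tet1, Nos2, Eef1a1, Jund, Klf6, Bhlhe40, Cd69, E2f1, Zfp36 and Dusp1, were chosen after their values were seen. The members and the gene lists were chosen with earlier results of these data known. GC content and length came from GENCODE M21 on GRCm38 by symbol, 1 transcript per gene, for 24026 genes. No coordinates of mm9 are given. Genes with overlapping, antisense or near-identical copies may split or share reads, so their values are uncertain, and 58 tested genes held the values of another gene. Some genes that the rule names are not reported here. Alternatives covered scaling, filter, pseudocount, tool, random thinning of counted reads, group term and single libraries.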

Additional observations from a re-analysis of the deposited data

Results flagged for a closer look

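Within a set, the value of 1 sample stood apart from the others by Dixon's criterion for several named genes, which chance gives in about 1 of 20 groups of samples. In all, 15 of 168 groups of samples were picked out. In F261A/A284V replicate 1, the shallowest library of its set, Hspa5 stood at 1605, Malat1 at 4176, Txnip at 1674, Mir3069 at 45.39 and Scarna13 at 116.6, each above the other samples of replicates 1 and 2, of which the nearest stood at 1341, 3290, 1377, 35.45 and 94.59. In RBPJ WT of replicates 1 and 2, Ccr2 stood at 412.2, above the next sample at 118.4, while Hey1 at 7.873, Lgmn at 101.2, Gzmb at 40.46, Gimap8 at 3.973 and L3mbtl3 at 536.5 stood below the others. The insert of RBPJ WT differs from that of the other samples of its set, so these values also follow the groups. In F261A/A284V replicate 2, Cd247 stood at 289.2, above 252.7. In F261A/A284V of replicates 3 and 4, Fosl2 stood at 2936 and Stab1 at 185.8, above the next samples at 2008 and 123.2. In empty vector replicate 3, Tyms stood at 223.1, above 195.6.

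The difference between the sets varied with the group for 2 genes, by the interaction test of limma. For Bzrap1 the adjusted p was 0.00861, and the log2 differences between the sets were 0.80 within F261A/A284V, -0.28 within RBPJ WT and 0.08 within empty vector. For Gimap1 the adjusted p was 0.0088, with log2 differences of -0.83 within F261A/A284V, 0.58 within RBPJ WT and -0.43 within empty vector.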

How the results depend on the processing

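The counts of genes higher and lower in replicates 1 and 2 stayed within 1.5 times of 3855 and 3775 under the other tools, scalings, filters, thinning and the fits within 1 group, and ranged from 3613 to 3881 and from 3617 to 3875 when single libraries were left out. Thinning drew at random from reads already counted, so it could not remove a limit on the reads counted per base. In the lowest of 5 bins of read density alone, where fewer genes are tested, 416 (17.9%) were higher and 351 (15.1%) lower. The counts of at least 2-fold depended more on the processing. Those higher numbered 190 with a pseudocount of 8, 594 with no filter, 140 with a mean of at least 50, 164 with quantile scaling, 123 with the density trend removed and 96 in the lowest bin; leaving out single libraries gave 355 to 414. Those lower numbered 10 with a pseudocount of 8, 9 with a mean of at least 50, 138 with quantile scaling, 78 with the density trend removed, 54 in the lowest bin, 42 within empty vector and 57 within F261A/A284V, and 21 to 35 without single libraries. The cause was not tested. The interaction was called for 42 genes with 12 separate libraries and 6 with edgeR, with 1195 and 514 genes at an unadjusted p under 0.05. Of 175 named genes called, 3 turned their direction with the density trend removed: Top2a (0.052), Cdkn2c (0.026) and Mt2 (0.11). Elsewhere Mt2 turned to 0.011 and Xiap to -0.082 with GC and length trends removed, Gimap6 to 0.18 with no group term and Gzmb to 0.084 within RBPJ WT. No paired analysis was possible because the replicate numbers are nested in the compared sets. Depth differs between the sets, the alternatives on density were chosen after seeing the data, and density was computed from the same libraries.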

Other observations

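Further gene groups are given beside all genes tested, of which 33% were higher and 32.3% lower as deposited, and 25% higher and 25.7% lower with the density trend removed. Of 26 splicing factors and nuclear speckle genes, 17 were lower in replicates 1 and 2 and 2 higher as deposited, and 3 were lower and 14 higher with the density trend removed. Of 24 chromatin regulators with long transcripts, 10 were higher and 6 lower as deposited, and 10 were higher and 2 lower with the trend removed. Their median was 0.08 both times, and turned to -0.14 with GC and length trends removed. Of 25 genes of lysosome and autophagy, 16 were lower and 3 higher as deposited, and 14 were lower and 5 higher with the trend removed.

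In the knockdown experiment on the same line, the median log2 difference of replicate 3 minus replicates 1 and 2 was 0.35 for immediate early genes, 0.14 for ribosomal proteins, 0.01 for DNA replication and G1/S, and -0.28 for interferon response genes, against 0.01 over all genes tested. With the density trend removed these medians were 0.41, 0.04, -0.04 and -0.27, against 0.01. Across 11352 genes the knockdown difference correlated at -0.37 (Pearson) with that between replicates 1 and 2 and replicates 3 and 4 of the rescue. This is a description of values as deposited. The split of knockdown replicate 3 was itself seen in the data. Scramble hairpin replicate 3 was also the shallowest knockdown library, at 4882485 reads against 5822710 to 6129134 in the others. The part of depth in the correlation was not tested.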
